A study of Mus musculus with 3 samples.

Results

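Hyaluronan synthesis, breakdown and binding were followed through 10 genes, chosen by name from the 55471 features of the table: the synthases Has1, Has2 and Has3, the breakdown genes Hyal1, Hyal2 and Cemip, the receptors Cd44 and Hmmr, and the genes of the hyaluronan-binding matrix proteins Tnfaip6 and Vcan. All 10 were found, none under a repeated symbol. Polyadenylated RNA had been sequenced from 3 cultured populations of JC, a mouse mammary carcinoma line, as 1 library each. They form a series of stages: JC-WT, labelled WT; JC-P, recovered from tumours in the mammary fat pad at day 14; and JC-M3, which went 3 times through tail vein injection and recovery from lung lesions after 28 days, starting from cells derived from JC-P. All were grown in DMEM with fetal bovine serum. JC-P over JC-WT is called the fat pad step here, JC-M3 over JC-P the lung step, and JC-M3 over JC-WT the whole course. All 3 carry the genotype label WT, and the treatment label reads metastasis for JC-P as well as for JC-M3, so the fat pad origin of JC-P rests on the protocol. JC-M3 is a single selected derivative, and nothing in the labels says that it or JC-P was derived more than once.

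Hyaluronan is a long unbranched polysaccharide of glucuronic acid and N-acetylglucosamine. Synthases in the plasma membrane build it from UDP-sugars and extrude it, and hyaluronidases and Cemip start its breakdown into shorter chains that are finished in lysosomes. Cells hold it through receptors such as CD44, and in the matrix versican and the product of Tnfaip6 bind it and build it into larger assemblies. In breast tumours hyaluronan-rich matrix is known for its part in cell adhesion, migration and growth signalling.

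Values are in TPM, a transcript level corrected for gene length and library size, so genes can be compared within a library. Whole reads per gene could be recovered from them, and over all genes of known length they numbered 18093426 for JC-WT, 22132593 for JC-P and 23386413 for JC-M3. Features with a mean of 1 TPM or more over the 3 libraries count as measured, which leaves 14527 features and 7 of the 10 genes. Has1, Has3 and Vcan were below that level. A gene was called where the log2 ratio of TPM + 0.5 was at least 2-fold either way, and the added 0.5 shrinks the ratios of genes at low TPM. With 1 library per population there was no replicate check and no test, so each difference describes a pair of libraries. Folds are plain TPM ratios with their 95% exact (Clopper-Pearson) counting interval. Intervals cover counting error only: reads from PCR are not independent molecules, and variation between cultures is not in them. Ratios between genes also depend on which transcripts are present, because each gene has 1 length, the union of its exon bases. The intervals leave that out too. In bulk RNA, fewer cells of a type and less RNA per cell cannot be told apart.

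The genes that differed most between populations were Has2, in the fat pad step, and Cemip and Tnfaip6, in the lung step and in opposite directions. Has2, the only synthase gene with more than a trace of RNA, was lower in JC-P than in JC-WT and stood at the same low level in JC-M3. Cemip was highest in JC-P and lowest in JC-M3. Tnfaip6 was low in JC-WT and JC-P and several-fold higher in JC-M3. The receptor genes Cd44 and Hmmr were the most abundant of the 10 in every library and stayed within 2-fold in all 3 comparisons.

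In the fat pad step, 0 of the 7 measured genes were at least 2-fold higher and 1, Has2, was at least 2-fold lower, where 4.76% and 2.33% of all measured features were. In the lung step, 1 was higher (Tnfaip6) and 1 lower (Cemip), where 3.82% and 5.38% of all measured features were. Over the whole course, 1 was higher (Tnfaip6) and 2 were lower (Has2 and Cemip), where 6.14% and 5.27% of all measured features were. With 7 genes these counts set nothing apart as particular to hyaluronan. The median log2 ratio of the 7 genes was -0.09, 0.03 and -0.52 in these comparisons, against 0.01, -0.01 and 0.00 over all measured features. The comparisons share libraries and are not independent of each other.

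**Figure D1:**
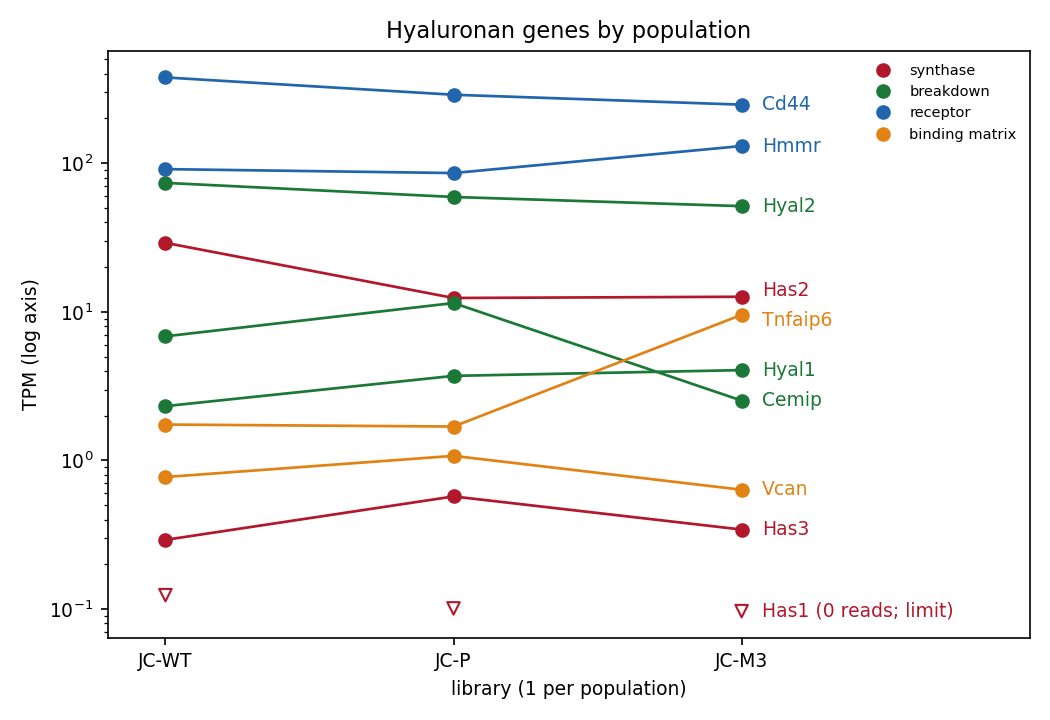
TPM of each gene (log axis) in the JC-WT, JC-P and JC-M3 libraries, coloured by role; open triangles mark the limit that 0 reads of Has1 allow. The line of Has2 drops between JC-WT (29.1 TPM) and JC-P (12.4 TPM), Cemip peaks in JC-P (11.5 TPM) and Tnfaip6 climbs in JC-M3 (9.55 TPM), while Cd44 stays on top.

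Within each library the order of the levels was steep. Cd44 was first, followed by Hmmr, Hyal2 and Has2 in all 3 libraries, and Vcan and Has3 came last among the genes with reads. The middle places changed. Cemip followed Has2 in JC-WT and in JC-P, whereas in JC-M3 Tnfaip6 and Hyal1 stood between them. Most neighbours in this order differed beyond counting error, with 3 exceptions. In JC-WT, Hyal1 was 1.33 times Tnfaip6 (0.741 to 2.51). In JC-P, Has2 was 1.08 times Cemip (0.953 to 1.23), and Tnfaip6 was 1.58 times Vcan (0.911 to 2.59).

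Among the synthases, which polymerise the chain, Has2 RNA made up nearly all of the level. Has2, the synthase that mouse embryos need for heart development, stood at 29.1 TPM in JC-WT (662 reads), 12.4 TPM in JC-P (345 reads) and 12.6 TPM in JC-M3 (367 reads). JC-WT was thus the high library, and JC-P and JC-M3 were level. The fold was 0.426 in the fat pad step (0.373 to 0.486), with a log2 ratio of -1.20, lower than that of all but 1.60% of measured features. In the lung step it was 1.02 (0.877 to 1.18), an interval that includes no difference. Over the whole course it was 0.434 (0.381 to 0.493), with a log2 ratio of -1.17. Has2 lies on chromosome 15 from 56665627 to 56694539 (GRCm38, GENCODE M21, as for the other genes), and 4.30% of its exon bases are overlapped on the other strand by Has2os, its antisense RNA. Has2os stood at 2.52 TPM in JC-WT cells, 2.34 TPM in JC-P cells and 2.42 TPM in JC-M3 cells (22, 25 and 27 reads). The sources used here give no strand setting for the counting, so reads of the overlapped bases could belong to either gene.

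Has1 had 0 reads in every library, which allows a level of up to 0.124 TPM in JC-WT cells, 0.101 TPM in JC-P cells and 0.0968 TPM in JC-M3 cells (the level of 3 reads). Has3, whose product is known for making shorter chains, stood at 0.292 TPM in JC-WT (10 reads), 0.572 TPM in JC-P (24 reads) and 0.343 TPM in JC-M3 (15 reads). The intervals of its 3 folds all included 1, so no difference was detectable at this depth. Has2 accounted for 99.0% of the summed synthase level in JC-WT cells, 95.6% in JC-P cells and 97.4% in JC-M3 cells. The sum of the 3 synthases was 29.4 TPM in JC-WT cells, 13.0 TPM in JC-P cells and 13.0 TPM in JC-M3 cells.

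By the pattern over the 3 libraries, the genes most like Has2 were Zfpm1, Pcdh7 and Foxo1. The measure was the distance in the log2 ratios of the 2 steps, among 8627 named genes averaging 10 TPM or more. Zfpm1, which encodes a GATA cofactor, lay at a distance of 0.132, with 22.6 TPM in JC-WT cells, 10.5 TPM in JC-P cells and 10.9 TPM in JC-M3 cells. The protocadherin gene Pcdh7 (distance 0.159) stood at 70.6, 33.8 and 32.9 TPM in the same order of libraries, and Foxo1 (0.224), a forkhead transcription factor gene, at 19.0, 9.36 and 9.98 TPM. Only these 3 genes lay within a distance of 0.25. With 3 libraries such likeness is a description of few points.

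Among the breakdown genes, Cemip varied most. It encodes a secreted hyaluronan-binding protein that fibroblasts need to depolymerise hyaluronan, and lies on chromosome 7 from 83932857 to 84086502. Because it had the lowest lung step ratio of the 10 genes, its promoter window is shown here, from RefSeq (GRCm38.p6, chr7:84086456-84086755, minus strand), 5′ to 3′, from 250 bases before the start site to 50 after it. Capitals mark every match on either strand to any of 5 motifs. The AP-1 motif was searched as TGANTCA. The TATA box was searched as TATAAA. The motif of the TEAD factors was searched as GGAATG. The CHR, a cell cycle element, was searched as TTTGAA. The CCAAT box was searched by the letters of its name. None of these matches overlapped another in the windows shown, and bases that match AP-1 on both strands count once.
Cemip: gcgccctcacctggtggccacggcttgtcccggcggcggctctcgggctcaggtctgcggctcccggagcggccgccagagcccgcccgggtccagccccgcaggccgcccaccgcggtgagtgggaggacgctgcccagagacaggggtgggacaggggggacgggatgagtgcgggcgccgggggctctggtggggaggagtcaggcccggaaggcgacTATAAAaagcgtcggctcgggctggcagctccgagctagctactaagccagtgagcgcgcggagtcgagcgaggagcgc

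The window held 1 match, a TATA box at position -29, counted from the start site. A TATA box on either strand was present in 13.6% of the 32851 RefSeq windows of 300 bases. The window was rich in G and C, at 73.7% of bases against a median of 52.7% over all windows. It held 33 CG dinucleotides, against a median of 7.

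Cemip stood at 6.84 TPM in JC-WT (449 reads), 11.5 TPM in JC-P (921 reads) and 2.53 TPM in JC-M3 (212 reads). JC-P was the high library and JC-M3 the low one. The fold was 1.68 in the fat pad step (1.49 to 1.88), with a log2 ratio of 0.70, which was above zero but short of the 2-fold call. In the lung step the fold was 0.220 (0.189 to 0.256), with a log2 ratio of -1.98, and 1.27% of measured features had a lower one. Over the whole course it was 0.369 (0.312 to 0.436), with a log2 ratio of -1.28. Has2 was 4.26 times Cemip in JC-WT (3.77 to 4.81), 1.08 times in JC-P (0.953 to 1.23) and 5.00 times in JC-M3 (4.21 to 5.95). Their levels were thus nearest to each other in JC-P. Among marker lists, the epithelial, endothelial and fibroblast ones had their highest sums in JC-P, while the myeloid list had its highest in JC-WT. Few genes carried these sums, and members of a list differed. The 7 epithelial markers summed to 1553 TPM in JC-WT cells, 1922 TPM in JC-P cells and 700.5 TPM in JC-M3 cells. The 6 endothelial markers, 2 of them measured, summed to 7.91 TPM in JC-WT cells, 35.9 TPM in JC-P cells and 3.05 TPM in JC-M3 cells, with Kdr at 0. Cdh5 (0.0887, 17.7 and 0.104 TPM) and Plvap (7.60, 17.8 and 2.71 TPM) made up nearly all of that sum. The 9 fibroblast markers summed to 90.6, 158 and 144 TPM in the same order of libraries, and their 6 measured members were divided in the lung step, with 3 log2 ratios above 0 and 3 below. Of those 6, Col3a1 and Pdgfra were highest in JC-P, Col1a2, Dcn and Pdgfrb in JC-M3, and Dpt in JC-WT. The part of the marker genes in the level of Cemip was not tested.

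Hyal2, encoding a membrane-anchored hyaluronidase that makes chains of intermediate size, was the most abundant of the breakdown genes. It stood at 73.7 TPM in JC-WT (1303 reads), 59.2 TPM in JC-P (1282 reads) and 51.4 TPM in JC-M3 (1161 reads), lower at each stage than at the one before. The fold was 0.804 in the fat pad step (0.743 to 0.869), 0.867 in the lung step (0.801 to 0.940) and 0.697 over the whole course (0.643 to 0.755). Each interval left out 1, and each fold was far from 2-fold.

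Hyal1, the lysosomal hyaluronidase gene, was higher in JC-P and JC-M3 than in JC-WT, at low levels. It stood at 2.32 TPM in JC-WT (47 reads), 3.71 TPM in JC-P (92 reads) and 4.05 TPM in JC-M3 (105 reads). The fold was 1.60 in the fat pad step (1.11 to 2.32), 1.09 in the lung step (0.818 to 1.46) and 1.75 over the whole course (1.23 to 2.52). Its level is uncertain, because 51.9% of its exon bases are overlapped on the same strand by its neighbours Hyal3 and Naa80 on chromosome 9, and reads there can be dropped or assigned elsewhere. Hyal2, in the same cluster, has no such overlap. Of the 50-base windows of annotated transcripts, 49.7% of those of Hyal1 also occurred in other genes, and at most 4.79% (Has3) for the other 9. Hyal2 was 31.8 times Hyal1 in JC-WT cells, 16.0 times in JC-P and 12.7 times in JC-M3, ratios that inherit this uncertainty. The sum of these 3 breakdown genes was 82.9 TPM in JC-WT cells, 74.4 TPM in JC-P cells and 58.0 TPM in JC-M3 cells. Cemip made up 8.25%, 15.4% and 4.36% of it. That sum leaves out Cemip2, listed here among other hyaluronan-degrading genes and named after its values were seen. Cemip2 stood at 23.6 TPM in JC-WT cells, 20.9 TPM in JC-P cells and 19.1 TPM in JC-M3 cells, above Cemip in each library.

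**Figure D2:**
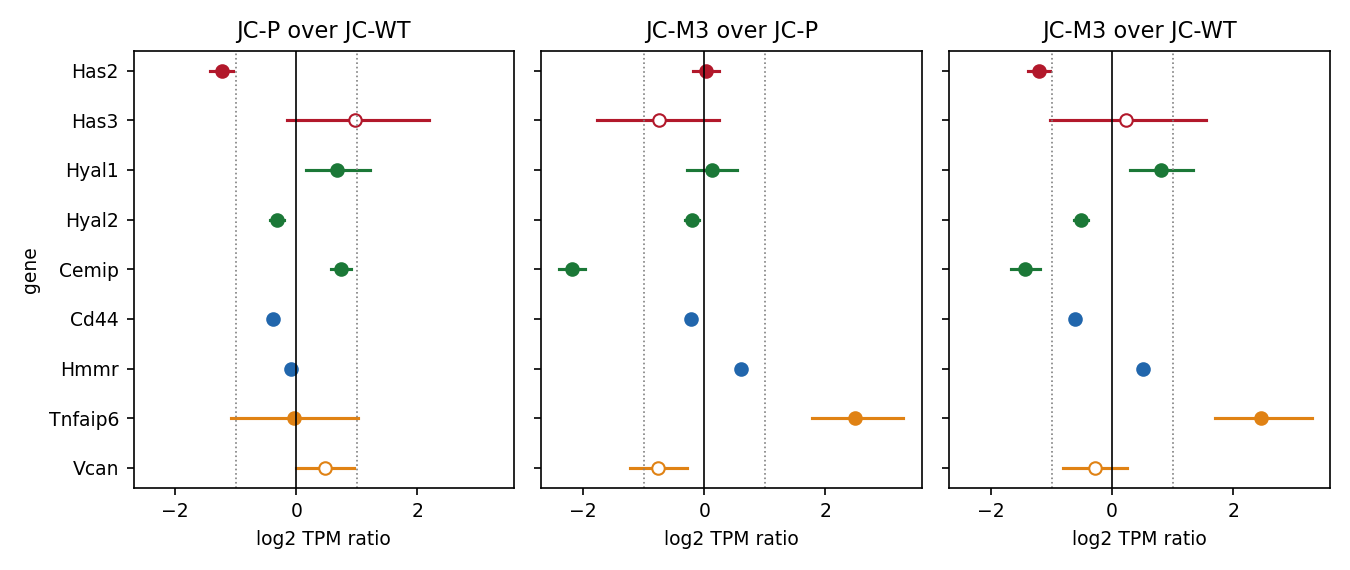
Log2 ratios of plain TPM for the 9 genes with reads, in panels for the fat pad step, the lung step and the whole course; bars are 95% counting intervals, open points are genes below a mean of 1 TPM and dotted lines mark 2-fold. Has2 lies left of the 2-fold line in the first and last panels, Cemip in the middle and last ones, and Tnfaip6 lies right of it in the middle and last ones.

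Cd44, the gene of the principal cell surface receptor for hyaluronan, had the highest level of the 10. It lies on chromosome 2 from 102811141 to 102901665. It stood at 378 TPM in JC-WT (13731 reads), 289 TPM in JC-P (12858 reads) and 248 TPM in JC-M3 (11512 reads), which placed it 393rd, 529th and 660th among the 14527 measured features. The level was lower at each stage. The fold was 0.765 in the fat pad step (0.747 to 0.783), 0.858 in the lung step (0.836 to 0.880) and 0.656 over the whole course (0.640 to 0.672). Its log2 ratio over the whole course, -0.61, lay above that of 11.8% of measured features, so a difference of this size was common between these libraries. Cd44 made up 64.7% of the summed level of the 10 genes in JC-WT cells, 62.1% in JC-P cells and 53.9% in JC-M3 cells. The annotation lists 9 transcripts of Cd44, and the table gives 1 value per gene, so the standard and variant forms of the receptor were not separated. Esrp1, an epithelial splicing factor gene known for including variant exons of Cd44, had 0 reads in JC-WT cells, 0 in JC-P cells and 1 in JC-M3 cells. Its relative Esrp2 had 7, 3 and 25 reads in the same order. Esrp1 and Esrp2 were below the level measured, and they were singled out after their values were seen.

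Hmmr encodes RHAMM, a hyaluronan-binding protein that also works inside the cell on the mitotic spindle. The gene lies on chromosome 11 from 40701395 to 40733422. Promoters of mitotic genes are known for CCAAT boxes followed by a CHR element, so the window of Hmmr is shown, from RefSeq (GRCm38.p6, chr11:40733388-40733687, minus strand), 5′ to 3′, with capitals for matches to the same 5 motifs.
Hmmr: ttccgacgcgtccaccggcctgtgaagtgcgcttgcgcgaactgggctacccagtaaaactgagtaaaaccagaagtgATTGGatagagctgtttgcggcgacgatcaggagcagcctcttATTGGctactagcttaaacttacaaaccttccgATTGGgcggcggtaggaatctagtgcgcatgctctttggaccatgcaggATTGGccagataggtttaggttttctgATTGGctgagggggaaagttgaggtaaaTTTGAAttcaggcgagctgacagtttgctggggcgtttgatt

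The window held 5 CCAAT boxes, all on the opposite strand and therefore read as ATTGG, and 1 CHR element that began at position 9 of the transcript. A CCAAT box was present in 37.4% of all windows and a CHR element in 17.9%. At least 5 CCAAT boxes were present in 89 of 32851 windows (0.271%), and 14 of these (0.0426% of all windows) also held a CHR element. The number 5 was taken from Hmmr itself, and the match is a description of these bases only.

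Hmmr stood at 91.2 TPM in JC-WT (2659 reads), 85.8 TPM in JC-P (3063 reads) and 130 TPM in JC-M3 (4861 reads). JC-M3 was the high library, and JC-WT and JC-P were close to each other. The fold was 0.941 in the fat pad step (0.893 to 0.991), 1.52 in the lung step (1.45 to 1.59) and 1.43 over the whole course (1.36 to 1.5). Of a list of 13 genes of mitosis and of Hmmr partners, all measured, 11 had a log2 ratio above 0 in the lung step and 2 below. In the fat pad step 4 were above 0 and 9 below, and over the whole course 8 were above and 5 below. The median of all measured features was -0.01 in the lung step. In that step 1 of the list was at least 2-fold higher and 0 were lower, where 3.82% and 5.38% of all measured features were. That list had a median log2 ratio of -0.31 in the fat pad step, 0.36 in the lung step and 0.19 over the whole course, where Hmmr had -0.09, 0.60 and 0.51. Cdc20, an activator of the anaphase-promoting complex, was the member past 2-fold, at 400.0 TPM in JC-M3 against 161 TPM in JC-P. Top2a, the topoisomerase gene of dividing cells, stood at 289 TPM in JC-WT cells, 303 TPM in JC-P cells and 338 TPM in JC-M3 cells. Hmmr thus lay above the median of this list in each comparison, and whether proliferation had a part in its level was not tested. Within each library Cd44 exceeded Hmmr, by 4.14 times in JC-WT (3.97 to 4.32), 3.36 times in JC-P (3.23 to 3.50) and 1.90 times in JC-M3 (1.84 to 1.96).

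Among the matrix proteins that bind hyaluronan, Tnfaip6 differed most. It encodes TSG-6, which transfers heavy chains of inter-alpha-inhibitor onto hyaluronan and is known as a product of inflamed tissue. The gene lies on chromosome 2 from 52038009 to 52056686. As the gene with the highest lung step ratio of the 10, its promoter window is shown, from RefSeq (GRCm38.p6, chr2:52037863-52038162, plus strand), 5′ to 3′, with capitals for matches to the same 5 motifs.
Tnfaip6: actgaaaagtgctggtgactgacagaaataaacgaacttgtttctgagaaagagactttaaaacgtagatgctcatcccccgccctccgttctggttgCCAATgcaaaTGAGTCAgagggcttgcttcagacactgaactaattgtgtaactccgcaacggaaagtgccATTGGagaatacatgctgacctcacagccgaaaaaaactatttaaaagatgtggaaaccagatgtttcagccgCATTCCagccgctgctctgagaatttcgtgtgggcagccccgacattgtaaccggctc

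The window held 1 AP-1 motif at position -142, CCAAT boxes at -152 and -81, and a TEAD motif on the opposite strand at -8. An AP-1 motif was present in 7.81% of all windows and a TEAD motif in 14.7%. RefSeq windows were matched for 8 of the 10 genes, and the AP-1 motif was found in the window of Tnfaip6 and in none of the other 7. Has2 and Has3 had no matched window and were not searched.

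Tnfaip6 stood at 1.74 TPM in JC-WT (16 reads), 1.69 TPM in JC-P (19 reads) and 9.55 TPM in JC-M3 (112 reads). JC-M3 stood alone, and the values of JC-WT and JC-P were close to each other, on few reads. The fold was 5.65 in the lung step (3.45 to 9.73), with a log2 ratio of 2.20, above that of 99.2% of measured features. Over the whole course it was 5.48 (3.23 to 9.91), with a log2 ratio of 2.16. In the fat pad step it was 0.970 (0.472 to 2.02), an interval too wide to show a 1.5-fold difference either way. The gene rests on few reads in JC-WT and JC-P, so the size of the fold is known only within a broad range. Immediate early genes, which can reflect the handling of cells, were read beside it from a list chosen after values were known. Of 21 measured, 17 had a log2 ratio above 0 in the lung step and 4 below, where the median of all measured features was -0.01. In that step 2 were at least 2-fold higher and 1 lower, where 3.82% and 5.38% of all measured features were. Their median log2 ratio was -0.15 in the fat pad step, 0.29 in the lung step and 0.08 over the whole course. Their part in the level of Tnfaip6 was not tested.

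RNA of the TSG-6 partners read here was scarce, and their protein was not measured. Ptx3, encoding the pentraxin that joins TSG-6 in hyaluronan matrix, had 2 reads in JC-WT cells, 2 in JC-P cells and 20 in JC-M3 cells (1.09 TPM), a fold of 9.58 in the lung step (2.33 to 84.5). It lay below the level measured. Of the heavy chain genes, Itih1 and Itih3 had 0 reads in every library, and Itih2 had 12 reads in JC-WT cells, 8 in JC-P cells and 11 in JC-M3 cells. Ambp, which encodes the light chain, also had 0 reads. Ptx3, the heavy chain genes and Ambp were singled out after their values were seen.

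Versican, the large chondroitin sulphate proteoglycan that binds hyaluronan through its N-terminal domain, had a low RNA level. Vcan stood at 0.773 TPM in JC-WT (60 reads), 1.07 TPM in JC-P (102 reads) and 0.635 TPM in JC-M3 (63 reads). JC-P was the highest library. The fold was 1.39 in the fat pad step (0.9996 to 1.94), 0.592 in the lung step (0.425 to 0.818) and 0.821 over the whole course (0.568 to 1.19). Its 9 annotated transcripts were not separated.

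**Figure D3:**
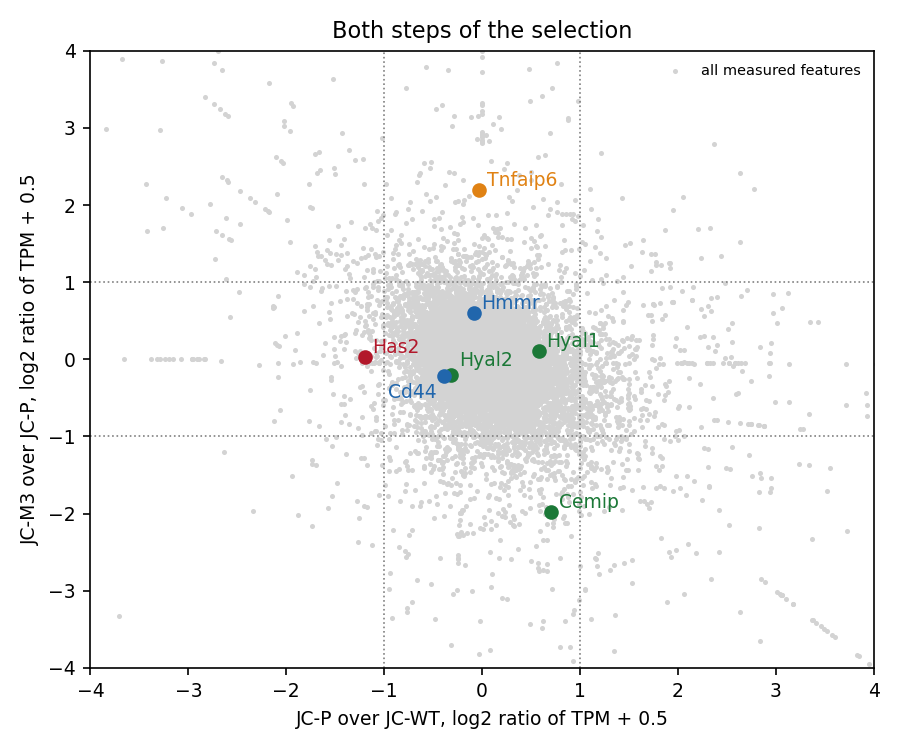
Log2 ratio of TPM + 0.5 for JC-P over JC-WT (horizontal) and JC-M3 over JC-P (vertical) for all 14527 measured features in grey, less 38 beyond the axes, with the 7 measured hyaluronan genes coloured by role and dotted lines at 2-fold. Has2 lies left of the 2-fold line near 0 on the vertical axis, Cemip lies below 2-fold and Tnfaip6 above it on that axis, while Cd44, Hyal2, Hyal1 and Hmmr lie inside 2-fold on both axes. The axes share the JC-P library.

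A wider list held 70 genes of hyaluronan metabolism, receptors and their partners, binding matrix, versican proteases and mitosis. It took in the 13 genes of mitosis and of Hmmr partners above, all measured. Its counts and medians therefore also reflect genes outside hyaluronan metabolism. Of its 45 measured genes, 0 were at least 2-fold higher and 0 lower in the fat pad step, where 4.76% and 2.33% of all measured features were. In the lung step 2 were higher (Adamts1 and Cdc20) and 1 lower, where 3.82% and 5.38% of all measured features were. Over the whole course 0 were higher and 3 lower, where 6.14% and 5.27% of all measured features were. With 45 genes these counts set nothing apart as particular to the list. The median log2 ratio was -0.04, -0.04 and 0.00 in these comparisons, close to that of all measured features.

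Of 11 measured genes that supply the UDP-sugars, none passed 2-fold in the fat pad or lung step, and 1 was lower over the whole course. In each direction of each comparison, 2.33% to 6.14% of all measured features were called, so with 11 genes these counts set nothing apart. In the lung step 9 of the 11 had a log2 ratio below 0 and 2 above. Over the whole course their log2 ratios ran from -1.51 to 0.67. The gene lower over the whole course was Uap1l1, a relative of the enzyme that makes UDP-N-acetylglucosamine. It stood at 189 TPM in JC-WT cells, 122 TPM in JC-P cells and 65.8 TPM in JC-M3 cells, lower at each stage. Its fold over the whole course was 0.349 (0.330 to 0.369). Pgm1, a phosphoglucomutase gene, stood at 129, 146 and 89.4 TPM in the same order of libraries. Among genes for the later steps of breakdown, Hexa, which encodes the alpha subunit of lysosomal hexosaminidase A, was level at 129 TPM in JC-WT cells, 129 TPM in JC-P cells and 138 TPM in JC-M3 cells. Hyal3, another gene of the chromosome 9 cluster, had 11 reads in JC-M3 against 23 in JC-WT, a fold of 0.374 (0.165 to 0.799), and 8.16% of its exon bases overlap Hyal1 or Naa80.

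Of other hyaluronan receptors, Layn, which encodes the membrane protein layilin, had the highest level. It stood at 213 TPM in JC-WT cells, 165 TPM in JC-P cells and 107 TPM in JC-M3 cells, and its fold of 0.501 over the whole course (0.471 to 0.532) lay just inside the 2-fold call. Tlr2, a pattern receptor gene, stayed at 84.4, 80.0 and 85.1 TPM. Lyve1, the lymphatic receptor gene, had 0 reads in every library and was named after its values were seen. Of 16 other binding matrix genes, 7 had 0 reads in every library and 2 were measured, the link protein gene Hapln4 at 80.8, 72.2 and 103 TPM and Habp4, for an intracellular hyaluronan-binding protein, at 26.2, 26.1 and 19.7 TPM. Of the versican proteases, Adamts1 was at 53.3 TPM in JC-M3 against 22.5 TPM in JC-P, a fold of 2.37 (2.18 to 2.57), and at 26.9 TPM in JC-WT. Adamts4 stood at 18.0, 27.7 and 23.0 TPM. Among 6 measured genes that cut or anchor CD44, none passed 2-fold in any comparison. In each direction of each comparison, 2.33% to 6.14% of all measured features did, so with 6 genes this sets nothing apart. The most abundant of them were the cytoskeletal linkers Msn (316, 345 and 401 TPM) and Rdx (154, 165 and 195 TPM).

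**Figure D4:**
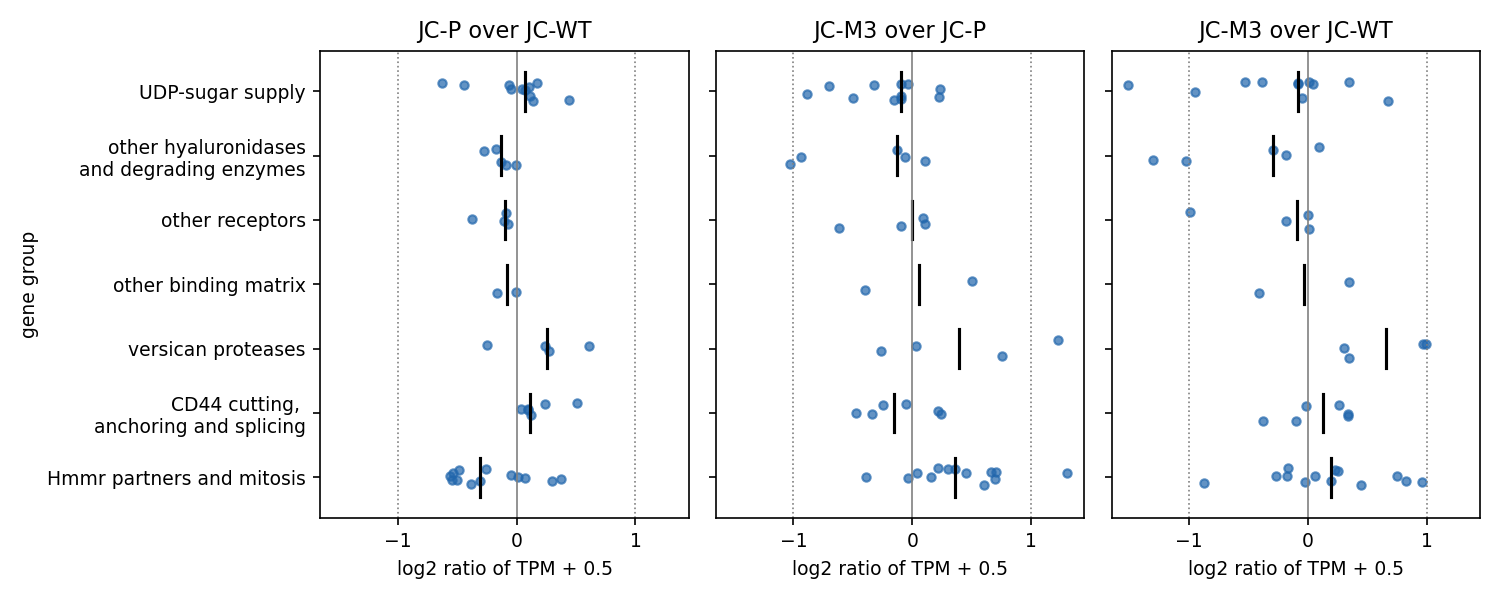
Log2 ratios of TPM + 0.5 of the 45 measured genes of the wider list, by group, in panels for the fat pad step, the lung step and the whole course; points are genes, black bars group medians and dotted lines 2-fold. Most points lie inside 2-fold in every panel, and the mitosis group sits left of 0 in the first panel (median -0.31) and right of it in the middle one (median 0.36).

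Markers of cell types were read beside these genes. The label calls the cells epithelial-like. Of 7 epithelial markers 2 were measured, Krt8 at 1503 TPM in JC-WT cells, 1873 TPM in JC-P cells and 681 TPM in JC-M3 cells, and Krt18 at 48.6, 48.5 and 18.4 TPM, while Epcam had 0 reads in every library and Cdh1 had 0, 25 and 21. Of 9 fibroblast markers 6 were measured, with Lum and Thy1 at 0 in every library. In the fat pad step 2 of these were at least 2-fold higher and 0 lower, and in the lung step 1 was higher and 3 lower, beside the shares of all measured features given above. The 6 myeloid markers, 1 of them measured, summed to 13.0, 7.30 and 9.63 TPM, with Ptprc, Adgre1 and Itgam at 0. Of the 4 markers of T and B cells none was measured. The part of the markers in the levels of the hyaluronan genes was not tested.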

How the data were processed

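The deposited table holds TPM values, made by the authors from reads per gene, gene length and library size, as shown by the column headers, per the file headers, and by nearly equal column totals. Reads had been processed with FastQC 0.11.9, STAR 2.7.9a and then featureCounts, per the submitters' processing notes, which list the builds mm10 and GRCm38. The sources used here state neither an annotation release nor a strand setting. Each TPM value times its gene's union of exon bases in GENCODE M21 (GRCm38; 55230 features matched) gave whole multiples of 1 step per library. Reads came out whole within 0.01 for 98.4% of genes with reads in the JC-WT library, for 98.5% in the other libraries, and for all 10 members in each. Ratios were log2 of TPM + 0.5, among features averaging 1 TPM or more, called at 2-fold. With 1 library per group no test was run. Floors are 3 reads.

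The members and lists were chosen with earlier results of these data known, and so were the motifs. Named genes were all members, listed genes past 2-fold, the 2 most abundant of each group and the 3 genes nearest in pattern to a member averaging 10 TPM or more with a 2-fold difference; 1 listed gene that the rule names is not reported here. Calls were also run on simulated reads that held counting error only, which cannot check them against variation between cultures. Promoters are RefSeq windows (GRCm38.p6). Alternatives were other pseudocounts, scalings, filters and thresholds and summed repeated symbols. Software: scipy 1.17.1, pandas 2.3.3 and numpy 2.4.6 under Python 3.11.15, figures with matplotlib 3.10.9.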

Additional observations from a re-analysis of the deposited data

How the results depend on the processing

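Counts of members called stood at 1 in the fat pad step, 2 in the lung step and 3 over the whole course. They were the same with pseudocounts of 0.1 and 1 TPM and under both rescalings. Summing repeated symbols could not change them, because no member has a repeated symbol. A 1.5-fold threshold gave 2 in the fat pad step, 3 in the lung step and 5 over the whole course. A 3-fold threshold gave 0, 2 and 1 in the same order. A mean of at least 10 TPM, which leaves out Cemip and Tnfaip6, gave 0 in the lung step and 1 over the whole course. The wider list had 0, 3 and 3 calls in the 3 comparisons, and its counts were less stable. With a pseudocount of 0.1 TPM it had 4 calls in the lung step and 4 over the whole course. Over the whole course it also had 4 under both rescalings and without a filter on the mean. A pseudocount of 1 TPM or a mean of at least 10 TPM gave 2 there. A 1.5-fold threshold gave 2, 12 and 12, a 3-fold threshold gave 0 for both comparisons of JC-M3, and without a filter on the mean the lung step had 5, because more genes enter. Each recomputed member ratio was set against the distance from the middle to an end of its log2 counting interval. Of 135, 134 moved by less than that distance and 0 changed sign after a call. The other was Cd44 in the fat pad step, at -0.35 after median rescaling. Ratios with repeated symbols summed are among the 135 and could not move. Genes with few reads have wide intervals, so the rule is loose for them. No paired analysis was possible because each population has 1 library. Depth limits Has1, with 0 reads, the genes with at most 27 reads in any library (Has3, Hyal3, Ptx3, Itih2, Esrp2 and Has2os among those named), and the fold of Tnfaip6, with 16 reads for JC-WT and 19 for JC-P. Differences between cultures of 1 population were not measured.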
